A study of Homo sapiens with 8 samples.

Results

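Of the 8602 peaks that Sp1 antibody 1 gave on chromosomes 1 to 22 and X in U-2 OS cells, 874 shared no base with a peak of antibody 2 and had a summit more than 1 kb from every GENCODE transcript start. These distal peaks of antibody 1 only are described here. They were chosen by their place in the antibody 1 list, the absence of an overlapping antibody 2 peak and the distance of the summit from transcript starts, and no other measured value entered the choice. Sp1 is a zinc finger transcription factor, and its classical recognition element is the GC box, GGGCGG, which is common in promoters rich in CpG dinucleotides. Distal elements, by contrast, lie in introns and between genes, where enhancers, CTCF sites and repeated DNA are found. CTCF, which recognizes a long DNA sequence and organizes chromatin loops and boundaries, was profiled in the same study and provides a measure that the choice of these peaks did not use.

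U-2 OS is a human osteosarcoma line. The Sp1 antibodies, normal rabbit IgG and an input were run with 1 library each on a line that carries a V5 and Halo tag in the endogenous SP1 gene and that the labels title as parental. CTCF was profiled in 2 replicate libraries, each with its own input, from clone C32, a single clone with a FLAG and Halo tag in the endogenous CTCF gene, although the description of the series names wild type cells. All cells were fixed with 1% formaldehyde for 6 min and received no other treatment that the labels give. The 5 peak lists used here hold 93632 peaks and no read counts, so the depth behind a peak is unknown from them, and each Sp1 antibody and IgG stands on a single library. The Sp1 and CTCF libraries differ in line and sequencing instrument, and these differences cannot be told apart from the protein profiled.

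The sequences at the summits show several kinds of DNA. Each line below gives 101 bases of the plus strand of hg38 centred on a summit. The first pair of peaks, shown because they are rich in GC boxes, have GC boxes in capitals on either strand.
GC-box-rich, CLSTN1 intron, chr1:9768323-9768423: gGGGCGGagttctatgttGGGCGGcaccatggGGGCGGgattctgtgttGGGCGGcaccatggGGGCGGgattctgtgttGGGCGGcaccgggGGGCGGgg
GC-box-rich, between genes near LINC00354, chr13:111905436-111905536: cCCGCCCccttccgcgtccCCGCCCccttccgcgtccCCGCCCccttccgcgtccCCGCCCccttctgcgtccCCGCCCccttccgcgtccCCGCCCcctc
The next 5 are among the strongest of the 874 by fold enrichment, and none has a GC box. In the first 3 of these lines capitals mark GCCTCTCTGCGCCT, a 14-base word that these peaks share. In the next line capitals mark one unit of a tandem repeat, and in the last they mark CNNAGCAAC or CNNGGCAAC, words that resemble one arm of the X box bound by RFX factors.
Rank 1, chr22:11706990-11707090: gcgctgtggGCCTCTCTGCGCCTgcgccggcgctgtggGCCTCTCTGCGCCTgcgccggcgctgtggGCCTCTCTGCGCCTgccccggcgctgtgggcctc
Rank 2, chr22:11825093-11825193: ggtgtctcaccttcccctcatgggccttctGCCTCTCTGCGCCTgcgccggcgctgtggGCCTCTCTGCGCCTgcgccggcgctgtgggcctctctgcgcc
Rank 4, chr21:8815450-8815550: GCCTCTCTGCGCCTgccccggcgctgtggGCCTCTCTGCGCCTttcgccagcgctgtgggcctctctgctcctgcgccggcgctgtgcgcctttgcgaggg
Rank 3, chr4:3746619-3746719: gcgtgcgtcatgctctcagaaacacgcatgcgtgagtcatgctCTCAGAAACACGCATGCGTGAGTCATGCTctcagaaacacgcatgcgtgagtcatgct
Rank 5, chr16:709699-709799: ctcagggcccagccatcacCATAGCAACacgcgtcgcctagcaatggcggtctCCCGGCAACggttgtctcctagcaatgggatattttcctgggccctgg
Lines for the pair of peaks with the highest CTCF enrichment follow, with the CTCF core in capitals where it is present.
CTCF, first, chr18:97196-97296: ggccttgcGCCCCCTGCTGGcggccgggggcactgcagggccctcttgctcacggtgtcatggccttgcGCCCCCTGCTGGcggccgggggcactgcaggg
CTCF, second, chr21:46699492-46699592: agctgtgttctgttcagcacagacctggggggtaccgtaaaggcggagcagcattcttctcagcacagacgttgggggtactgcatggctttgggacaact
The last 6 lines show smaller groups taken up in the text. Capitals mark TCGCGAGA, the X box word, the bases of a transfer RNA gene in both transfer RNA lines, and AGCACCCACA, a word common to the peaks within TTC34.
TCGCGAGA, chr9:6681647-6681747: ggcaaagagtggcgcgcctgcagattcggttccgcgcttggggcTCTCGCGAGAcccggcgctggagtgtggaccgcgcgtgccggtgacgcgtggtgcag
X box word, near LINC00028, chr20:31497995-31498095: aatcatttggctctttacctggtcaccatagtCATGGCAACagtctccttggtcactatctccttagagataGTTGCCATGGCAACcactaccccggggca
X box word, MAPK8IP1 intron, chr11:45899747-45899847: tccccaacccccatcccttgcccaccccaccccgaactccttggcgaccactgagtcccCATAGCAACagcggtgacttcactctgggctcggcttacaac
Transfer RNA gene TRL-TAG3-1, chr16:22195750-22195850: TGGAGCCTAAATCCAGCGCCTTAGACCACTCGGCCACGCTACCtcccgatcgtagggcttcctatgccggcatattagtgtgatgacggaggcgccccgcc
Transfer RNA gene TRE-TTC2-2, chr15:26082263-26082363: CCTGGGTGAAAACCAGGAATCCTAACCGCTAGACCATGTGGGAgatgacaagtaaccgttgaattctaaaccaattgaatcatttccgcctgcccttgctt
TTC34 intron, chr1:2699005-2699105: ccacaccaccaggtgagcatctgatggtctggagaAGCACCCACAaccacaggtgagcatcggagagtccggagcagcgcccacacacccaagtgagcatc

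The 874 peaks were mostly of modest enrichment. Fold enrichment over the control, taken from the deposited lists, had a median of 4.97, and the middle 90% of peaks lay between 2.65 and 13.3. The median was 7.65 at the 467 distal peaks that both antibodies called and 6.72 at the 3506 promoter peaks of antibody 1 only, where promoter means a summit within 1 kb of a transcript start. Because these lists chose the peaks, the fold values are descriptive. The median width was 386 bp, compared with 591 bp at shared distal peaks. The nearest antibody 2 peak lay a median of 71240 bp away, and at 11 peaks it lay within 500 bp. The smallest gap, 20 bp, was at chr17:50027114-50027961. The nearest other antibody 1 peak lay a median of 32664 bp away.

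The 1 kb limit fell among peaks on both sides. The closest of the 874 to a transcript start lay in an AHDC1 intron, at chr1:27556832-27557573, 1001 bp from a start, with a fold of 6.79. The next lay 1002 bp from a start of NR1H2, the gene of a liver X receptor, at chr19:50330319-50330840, with a fold of 6.12. On the other side of the limit, a peak of antibody 1 only in MIR130AHG, 996 bp from a start, had a fold of 7.09.

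The median distance from summit to start was 6819 bp. Of the 874, 375 (42.9%, 95% Wilson interval 39.7 to 46.2%) lay 1 to 5 kb from a start, 159 lay 5 to 10 kb away, 259 lay 10 to 50 kb away, 38 lay 50 to 100 kb away and 43 lay more than 100 kb away. With starts of protein-coding genes only, for both the 1 kb limit and the distance, the share within 5 kb was 26.8% of the 1207 peaks then chosen. Wilson intervals here and below cover counting error only, and peaks that share sequence are not independent. The summit was in an intron at 434 peaks (49.7%), compared with 31.5% of all antibody 1 peaks, most of which are promoter peaks. At the other distal classes it was 50.4% (47.2 to 53.6%) for antibody 2 only and 41.1% (36.7 to 45.6%) for shared peaks. The summit lay between genes at 395 of the 874 (45.2%). It lay in an untranslated region at 21, in a noncoding exon at 18 and in a coding exon at 6. The nearest start belonged to a protein-coding gene at 430 peaks, to a long noncoding RNA at 232 and to a processed pseudogene at 92, with 777 different genes in all. At 106 peaks (12.1%, 10.1 to 14.5%) antibody 1 also had a summit within 1 kb of that nearest start, so at the other peaks the nearest start itself was not called. An antibody 1 summit lay that close to the nearest start at 16.1% (13.0 to 19.7%) of shared distal peaks. At distal peaks of antibody 2 only this was 5.51% (4.22 to 7.18%).

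**Figure D1:**
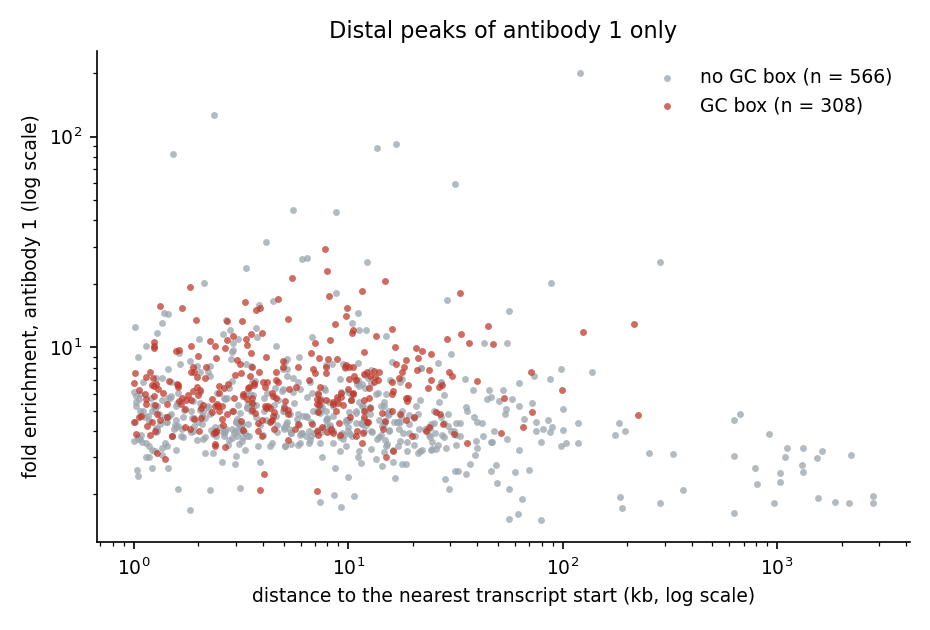
Fold enrichment with antibody 1 (log scale) against the distance of the summit from the nearest transcript start (kb, log scale), 1 point per peak, for the 874 distal peaks of antibody 1 only. Points are red where the 101-base summit window holds a GC box (308 peaks) and grey where it does not (566), and the 9 points with the highest fold are grey.

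Chromosome 19, which is rich in genes, held 98 of the 874 peaks (11.2%), or 16.7 per 10 Mb, the highest density of the 23 chromosomes, followed by 7.81 on chromosome 17 and 7.28 on chromosome 22. The lowest was 1.11 on chromosome 3. Chromosome 19 also held 9.85% of all antibody 1 peaks. Chromosome 22 held 4.23% of these peaks and 2.70% of all antibody 1 peaks. Within 500 kb of a chromosome end lay 44 peaks (5.03%, 3.77 to 6.69%), compared with 2.26% of all antibody 1 peaks and 7.49% (5.44 to 10.2%) of shared distal peaks.

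The DNA under the summits was rich in G and C. The median GC content of the 101-base windows was 64.4%, compared with 55.4% in windows of the same length centred 500 bp to each side, and with 63.4% at shared distal peaks and 68.3% at promoter peaks of antibody 1 only. The distal peaks of antibody 2 only, of which there were 925, had 47.5%. CpG was less frequent than at promoters. The median window held 4 CpG dinucleotides, against 9 at promoter peaks of antibody 1 only, and the median ratio of observed to expected CpG was 0.515 against 0.813. At 78 windows (8.92%, 7.21 to 11.0%) there was no CpG at all, compared with 0.713% at those promoter peaks. Such windows made up 8.35% (6.17 to 11.2%) of shared distal peaks and 19.2% (16.8 to 21.9%) of distal peaks of antibody 2 only. The median number of CpG dinucleotides was 5 at shared distal peaks and 2 at distal peaks of antibody 2 only. The median ratio of observed to expected CpG was 0.647 and 0.34 in these classes.

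A GC box lay in the window of 308 peaks (35.2%, 32.1 to 38.5%). Over all antibody 1 peaks the share was 53.2%, and in the flanking windows of the 874 it was 10.5% (9.17 to 12.1%). At shared distal peaks it was 39.6% (35.3 to 44.1%), an interval that overlaps that of the antibody 1 only peaks. At promoter peaks of antibody 1 only it was 52.7% (51.0 to 54.3%), and at distal peaks of antibody 2 only it was 5.51% (4.22 to 7.18%). At the summit itself, 15.8% of the 874 had a GC box in the central 25 bp, and this share fell on both sides. There were 124 peaks (14.2%) with 2 or more GC boxes and 62 (7.09%) with 3 or more, and these counts were not made in the other classes.

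**Figure D2:**
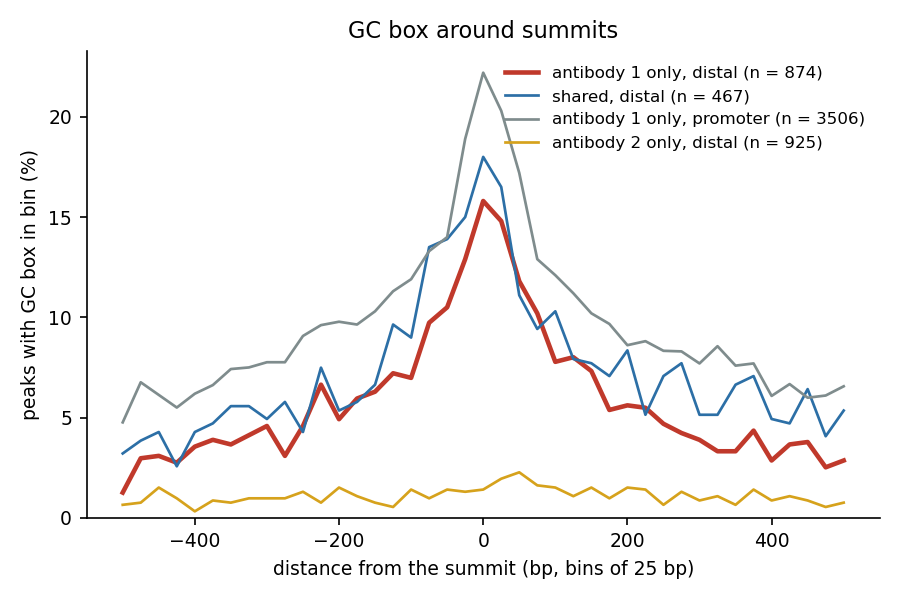
Share of peaks (%) with a GC box on either strand in each 25 bp bin, against the distance of the bin from the summit (bp), for the 874 distal peaks of antibody 1 only and for 3 other classes. The red line of the antibody 1 only distal peaks is highest, at 15.8%, in the bin at the summit, whereas the line of the antibody 2 only distal peaks has no such maximum there.

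GC boxes were more frequent among the stronger peaks, but not among the strongest few. When the 874 were split by fold enrichment into 4 groups of 218 or 219, from the weakest to the strongest group the share with a GC box was 12.3% (8.61 to 17.3%), 27.5%, 45.9% and 55.3% (48.6 to 61.7%). The median fold was 6.04 at the 308 peaks with a GC box and 4.43 at the 566 without. Of the 20 strongest peaks, however, 4 had one. The peak with the most, 7 in 101 bases, lay in an intron of CLSTN1, which encodes calsyntenin 1, at chr1:9768268-9768833, with a fold of 5.75. The printed window shows that its GC boxes recur within a tandem array. The peak at chr13:111905177-111905763, between genes and 5498 bp from a start of LINC00354, had 6 in a repeated stretch and a fold of 21.4. There were also 6 at chr19:47242950-47243430 (fold 4.39), and 5 lay in an intron of CBFA2T3, which encodes a transcriptional corepressor, at chr16:88905431-88906083 (fold 13.3).

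Related words were present at fewer peaks. The GC box variant GGGCGTGG, a CACCC-type element bound by Sp and KLF factors, was in 54 windows (6.18%, 4.77 to 7.97%), compared with 1.03% of flanks and 6.67% of all antibody 1 peaks. At shared distal peaks this variant was in 10.1% (7.65 to 13.1%), an interval that overlaps the 4.77 to 7.97% above. At distal peaks of antibody 2 only it was in 0.432%. The GT box GGGTGTGG was in 39 (4.46%, 3.28 to 6.04%), compared with 2.40% of flanks and 1.91% of all antibody 1 peaks. At shared distal peaks the GT box was in 3.85% (2.45 to 6.01%), which overlaps the interval of 3.28 to 6.04%. It was in 1.68% of promoter peaks of antibody 1 only and 0.865% of distal peaks of antibody 2 only. Counting the GC box, this variant and the GT box together, 367 peaks (42.0%, 38.8 to 45.3%) had at least 1. This joint count was not made over all antibody 1 peaks, where the GC box alone was in 53.2%. The 340 words of 8 bases that were present in at least 2% of the windows were then ranked by their share in windows over that in flanks. The first, AGTGGGCG, was in 27 windows (3.09%) and in 1 of 1748 flanks, and over all antibody 1 peaks its share was 3.27%. Of these 27 peaks, 24 had a GC box. A G directly after AGTGGGCG completes a GC box from the same bases, and how often this occurred was not counted. The second, GCCACGCC, was in 39 windows and 5 flanks. CCCCGCCC, which contains the GC box on the other strand, was in 176 windows (20.1%) and 44 flanks (2.52%). Shares of GCCACGCC and CCCCGCCC over all antibody 1 peaks were not counted.

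Elements of other factors were mostly infrequent. CCAAT, the NF-Y element, was in 85 windows (9.73%, 7.93 to 11.9%), compared with 7.95% (6.77 to 9.31%) of the flanks. It was in 20.7% of all antibody 1 peaks and 17.9% of promoter peaks of antibody 1 only. The low share was not common to all distal peaks, because CCAAT was in 16.7% (13.6 to 20.4%) of shared distal peaks. At distal peaks of antibody 2 only it was in 12.1% (10.2 to 14.4%), which overlaps the interval of 7.93 to 11.9%. CCGGAA, the ETS core, was in 31 (3.55%, 2.51 to 4.99%), compared with 11.8% of all antibody 1 peaks. The AP-1 element TGAGTCA was in 27 (3.09%, 2.13 to 4.46%), compared with 1.72% (1.20 to 2.44%) of flanks, 1.0% of all antibody 1 peaks and 8.86% of the distal peaks of antibody 2 only. GGAATG, the TEAD element, was in 62 (7.09%, 5.57 to 8.99%), compared with 6.41% of flanks and 5.05% of all antibody 1 peaks. At shared distal peaks it was in 12.8% (10.1 to 16.2%), and in 12.6% of their flanks. GGAATG also recurs in the family of GGAAT repeats described below, and the part of these repeats in the 62 was not counted. The E-box CACGTG was in 18 (2.06%), compared with 3.69% of all antibody 1 peaks, and the RUNX word TGTGGTTT was in 5 (0.572%), compared with 0.314%. The words of 4 further factors common at promoters were each in 4 windows or fewer. They were NRF1 with 4 (0.458%, compared with 1.27%), YY1 with 3 (0.343%, compared with 1.93%), ZNF143 with 3 (0.343%, compared with 1.13%) and E2F with 2 (0.229%, compared with 1.35%). TTGCGCAA or TTGCACAA, words bound by C/EBP factors, were in 1 window (0.114%), compared with 0.209% of all antibody 1 peaks and 24.6% of the distal peaks of antibody 2 only.

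**Figure D3:**
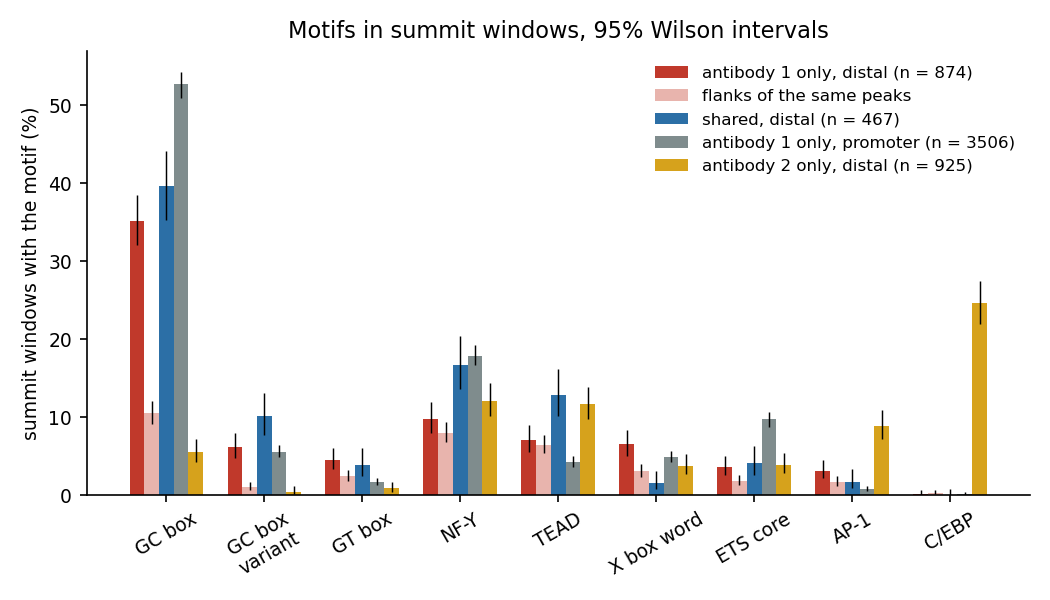
Share of 101-base windows (%) that hold each motif on either strand, with 95% Wilson intervals, at the summits of the 874 distal peaks of antibody 1 only, in their flanks 500 bp to each side, and at the summits of 3 other classes of peaks. The GC box bar is 35.2% for the 874 peaks and 10.5% for their flanks, and the C/EBP bar is 24.6% for the antibody 2 only distal peaks and 0.114% for the 874.

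The strongest peaks formed no single kind of site. The highest fold, 200.0, was at chr22:11706331-11707585, between genes, and the peak ranked 2, with a fold of 127, was at chr22:11824656-11825802. The peak ranked 4, with a fold of 87.8, was at chr21:8814957-8816136. These peaks belong to a set of 9, on chromosomes 4, 14, 21 and 22, whose windows all held GCCTCTCTGCGCCT, which recurs every 29 bases in the strongest, and no other window among the 874 held it. Their folds were 200.0, 127, 87.8, 31.7, 25.4, 20.1, 16.8, 8.77 and 3.91. None of the 9 had a GC box, none overlapped an IgG peak, and CTCF peaks of both replicates overlapped 2 of them. Whether reads from near-identical copies were divided among these places cannot be told from peak lists.

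The peak ranked 3, chr4:3746300-3747203, lay 16721 bp from a start of LINC02600 and had a fold of 91.8. Its 201-base surroundings matched themselves at 99.4% of positions when shifted by 29 bases. Its repeat unit differs from that of the set above and contains no GC box, but it does contain TGAGTCA, the AP-1 element. The peak ranked 5 was not a tandem repeat. It lay at chr16:709306-710169 in a noncoding exon, 1528 bp from a start, with a fold of 83.0, and its window held 2 X box words. The peak ranked 7, chrX:74025300-74026107, in an intron common to the noncoding RNA genes FTX and JPX, had a fold of 44.7, a GC content of 36.6% and no CpG. The peaks ranked 8 and 10, with folds of 44 and 29.2, lay 10441 and 10578 bp from the ends of chromosomes 21 and 2. The peak ranked 9, chr4:49519289-49520170, is in the set of 9 and had a fold of 31.7. Of the 10 strongest peaks only that ranked 10 had a GC box, and only those ranked 8 and 10 were overlapped by both CTCF replicates.

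CTCF overlapped a share of the 874 peaks close to that of antibody 1 peaks as a whole. Replicate 1 overlapped 228 (26.1%, 23.3 to 29.1%), compared with 28.7% of all antibody 1 peaks, and replicate 2 overlapped 200 (22.9%, 20.2 to 25.8%), compared with 21.2%. Both replicates overlapped 182 (20.8%, 18.3 to 23.6%), compared with 19.9%. At shared distal peaks the share with both was 31.7% (27.6 to 36.0%), at promoter peaks of antibody 1 only 17.7% (16.5 to 19.0%) and at distal peaks of antibody 2 only 9.08% (7.39 to 11.1%). Shared distal peaks were also wider, with a median of 591 bp compared with 386 bp, and the part of width in this difference was not tested. When a reciprocal overlap of 50% was required, the share at the 874 was 4.92%, and with summits within 100 bp it was 8.58%.

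Where both replicates overlapped, CTCF was strong. The median CTCF fold at the 182 peaks was 84.6 in replicate 1 (range 1.18 to 655) and 41.6 in replicate 2 (range 1.61 to 250.0). Replicate 1 was the higher at 173 of the 182. Spearman's rho between the replicates across these peaks was 0.933, whereas rho between antibody 1 fold and CTCF fold was 0.184 for replicate 1 and 0.177 for replicate 2. These are correlations across sites that share libraries and are given as a description. CTCF fold was above the median of its own list at 72.5% of the 182 peaks in replicate 1 and at 63.7% in replicate 2. The CTCF and Sp1 summits lay a median of 142 bp apart for replicate 1 and 122 bp for replicate 2. At 75 peaks both CTCF summits lay within 100 bp. The CTCF core lay in the summit window of 8 of the 874 (0.915%, 0.465 to 1.80%), compared with 0.43% of all antibody 1 peaks. It occurred within the whole interval at 24 of the 182 (13.2%) and at 2 of the 628 peaks that neither replicate overlapped (0.318%). How often this core occurs in the CTCF peak lists as a whole was not counted. Peaks without it are therefore not shown to lack a CTCF motif. The share overlapped by both was 26.0% (21.4 to 31.1%) with a GC box in the window and 18.0% (15.1 to 21.4%) without.

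**Figure D4:**
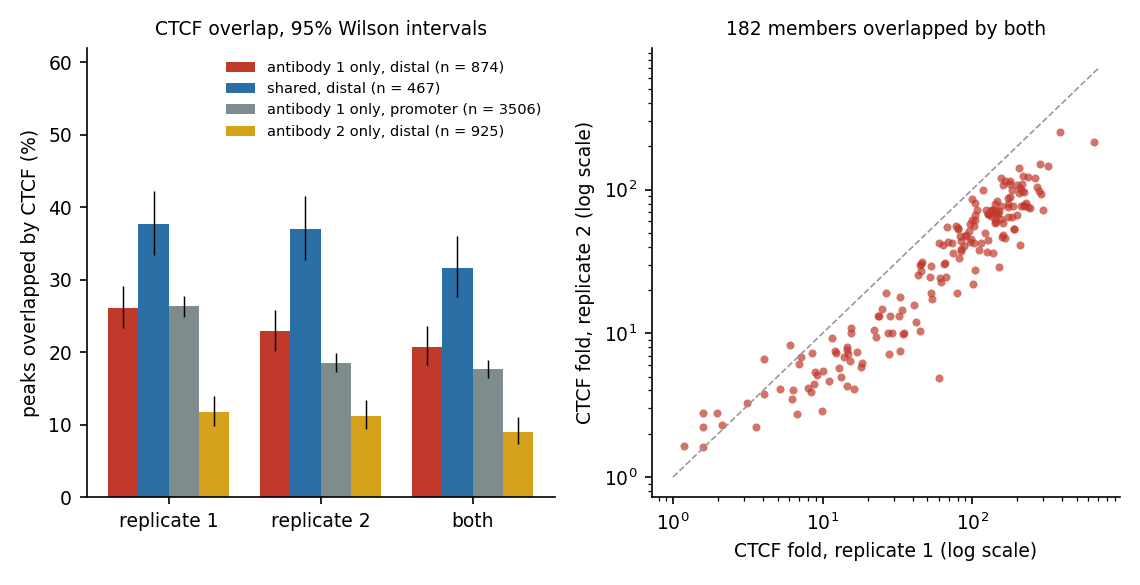
Left, share of peaks (%) overlapped by CTCF replicate 1, by replicate 2 and by both, with 95% Wilson intervals, for the 874 distal peaks of antibody 1 only and 3 other classes. Right, CTCF fold enrichment in replicate 2 against replicate 1 (log scales) at the 182 of the 874 that both overlapped, with a dashed line of equality, on whose lower side 173 points lie.

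By the mean log2 CTCF fold of both replicates, the highest CTCF enrichment was at chr18:97023-97539, between genes, where the CTCF folds were 655 and 216, the antibody 1 fold was 9.66 and the CTCF summit of replicate 1 lay 7 bp away. Its window, printed above, holds 2 copies of the CTCF core. Next were chr21:46698048-46699981 with CTCF folds of 387 and 250.0, chr2:242181738-242183559 with 322 and 147, and chr1:248944095-248944930 with 286 and 151. These 3 lay 10441, 10578 and 11869 bp from a chromosome end. At the chromosome 21 and chromosome 2 peaks the CTCF summit of replicate 1 lay 1067 and 813 bp from that of antibody 1, and at the chromosome 1 peak it lay 31 bp away. Next by this mean was chr11:64847118-64847397, 2604 bp from a start of CDC42BPG, the gene of a protein kinase that acts with Cdc42, with CTCF folds of 263 and 121 and an antibody 1 fold of 4.28.

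Chromosome ends contributed 10 of the 874 peaks within 20 kb (1.14%, 0.623 to 2.09%), on 9 chromosomes, with antibody 1 folds from 4.73 to 44 and a median of 12.1. The share this close to an end was 2.14% (1.17 to 3.9%) at shared distal peaks. At promoter peaks of antibody 1 only it was 0.0285%. Both CTCF replicates overlapped 6 of the 10, and the telomere repeat was in the windows of 5. Among all 874 the telomere repeat was in 10 windows (1.14%, 0.623 to 2.09%), compared with 0.279% of all antibody 1 peaks and 2.57% (1.48 to 4.44%) of shared distal peaks. Of the 10 peaks within 20 kb of a chromosome end, 5 had an RPL23A pseudogene nearest, on chromosomes 1, 2, 13, 21 and 22. None of these 5 had the telomere repeat in its window. At several telomere repeat peaks the fold was low while the deposited −log10 q was high. At the end of the long arm of chromosome 12 the fold was 5.47 and the −log10 q was 756, whereas the chromosome 2 peak with a fold of 29.2 had a −log10 q of 97.0.

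The IgG control gave 3 peaks that overlapped the 874 (0.343%, 0.117 to 1.00%), compared with 0.767% of all antibody 1 peaks and 12.8% (10.1 to 16.2%) of shared distal peaks. Of these, the chromosome 12 peak just described, at chr12:133264951-133265297, had the highest antibody 1 fold, and its IgG fold was 2.29. The others lay within LINC00665, at chr19:36280648-36281248, with folds of 2.84 for antibody 1 and 2.36 for IgG, and at chr20:31069270-31069559, with 1.73 and 1.78. With 106 IgG peaks in all, a place that antibody 1 enriched without an IgG peak is not shown to lack IgG signal.

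Some of the 874 shared sequence, simple repeats included. A word of 25 bases in the window was shared with at least 1 other of the 874 at 140 peaks (13.7 to 18.6% of the 874), in 36 families, of which 10 had 4 members or more and together held 83 peaks. At shared distal peaks the share was 25.1% (21.3 to 29.2%), at promoter peaks of antibody 1 only it was 2.71% (2.22 to 3.30%) and at distal peaks of antibody 2 only it was 17.6% (15.3 to 20.2%). These shares depend on how many peaks are compared. Family membership was most frequent in the weakest of the 4 groups by fold, at 31.1% (25.3 to 37.5%), compared with 12.4%, 7.34% and 13.2% in the others. A tandem repeat, defined as at least 80% of the 201 bases around the summit matching at a shift of 2 to 60 bases, was at 64 peaks (7.32%, 5.78 to 9.24%), compared with 1.73% of all antibody 1 peaks and 13.3% (10.5 to 16.7%) of shared distal peaks.

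**Figure D5:**
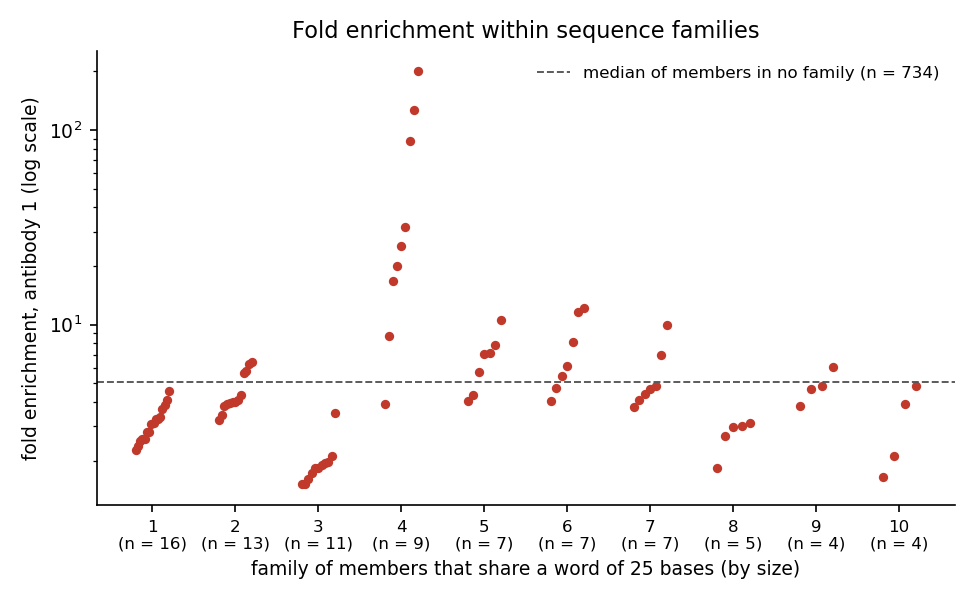
Antibody 1 fold enrichment (log scale) of each peak in the 10 families of 4 or more that share a word of 25 bases, numbered by size, with a dashed line at the median of the 734 peaks in no family. Family 4, which holds GCCTCTCTGCGCCT, runs from 3.91 to 200.0, whereas family 1, in TTC34, lies between 2.26 and 4.55.

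The largest family lay within a single gene. Introns of TTC34, which encodes a tetratricopeptide repeat protein, held 19 of the 874 peaks between chr1:2643170 and chr1:2757032, with folds from 2.26 to 5.63, and 16 of these shared 25-base words. At 18 of the 19 the best period of self-match was 40 bases, and AGCACCCACA was in 17 windows. One of the 19 had a GC box, and none was overlapped by both CTCF replicates or by IgG. A further 9 peaks lay within LINC00665, a long noncoding RNA gene, at chr19:36271820-36301593, with folds from 1.97 to 2.94, and 5 of these were in a family. PTPRN2, which encodes a receptor-type tyrosine phosphatase of secretory granules, held 6 in introns, with folds from 3.51 to 11.8. Of these, 4 were in tandem repeats and none was in a family. Copies of the DUX4L pseudogenes near the ends of chromosomes 4 and 10 held 4, with folds from 2.45 to 3.23. An 11-member family of GGAAT repeats, on 4 chromosomes, had a median fold of 1.83, and the 7-member family of telomere repeats, on 6 chromosomes, had a median of 6.14.

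Transfer RNA genes, which RNA polymerase III transcribes from promoter elements inside the gene, lay close to some summits. The GENCODE set used here has no starts for them, so the distance rule did not consider them. The summit was within 200 bp of a transfer RNA gene annotated by RefSeq at 27 of the 874 peaks (3.09%, 2.13 to 4.46%), and inside the gene at 10. Over all antibody 1 peaks the share was 0.965%. It was 4.50% (2.96 to 6.78%) at shared distal peaks, 0.513% (0.325 to 0.810%) at promoter peaks of antibody 1 only and 0.541% (0.231 to 1.26%) at distal peaks of antibody 2 only. Promoter peaks are held near GENCODE starts by definition, so the distal classes are the closer comparison. The 27 lay on 10 chromosomes and had folds from 3.18 to 13.0 with a median of 5.75. Of these, 4 had a GC box, and both CTCF replicates overlapped 8. The strongest was at TRL-TAG3-1, at chr16:22195627-22196036, 10478 bp from a start of EEF2K, with a fold of 13.0 and CTCF folds of 64.0 and 40.9. TRE-TTC2-2 at chr15:26081977-26082733 had a fold of 9.28, TRR-CCG1-3 at chr16:3150192-3150910 had 8.11, and TRE-TTC2-1 at chr13:44917808-44918419 had 7.62. Transfer RNA genes are multicopy, and 11 of the 27 shared 25-base words with another of the 874, and how reads were assigned among copies was not tested.

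Other words were found at small sets of peaks. The X box word was in 57 windows (6.52%, 5.07 to 8.36%), compared with 3.03% (2.33 to 3.94%) of flanks, 4.84% of all antibody 1 peaks and 0.728 to 3.06% (Wilson interval) of shared distal peaks. It was in 4.93% (4.27 to 5.7%) of promoter peaks of antibody 1 only and 3.78% (2.73 to 5.22%) of distal peaks of antibody 2 only. The interval of the 874 overlaps both of these intervals. The median fold at the 57 peaks was 6.70. Neither CTCF replicate overlapped 48 of the 57, compared with 628 of the 874. After the chromosome 16 peak with a fold of 83.0, the strongest were chr20:31497710-31498365, near LINC00028, with 25.3, chr11:45899450-45900060, in an intron of MAPK8IP1, the gene of a JNK scaffold protein, with 20.1, and chr10:133261188-133262404, 1825 bp from a start of ADAM8, with 19.3. TCGCGAGA, part of the element bound by BANP at CpG island promoters, was in 6 windows (0.686%, 0.315 to 1.49%) and in none of 1748 flanks, compared with 2.73% of all antibody 1 peaks and 3.37% of promoter peaks of antibody 1 only. These 6 had folds from 7.85 to 26.6, all above the median of the 874. The highest were chr9:6681112-6682009 with 26.6 and chr19:3914102-3914731, in an intron of ATCAY, with 26.2. CTCGTGAGA, a related word, was also in 6 windows and in none of the flanks, compared with 0.337% of all antibody 1 peaks, with folds from 4.51 to 14.9. The strongest of these, chr12:87690129-87690555, lay 56188 bp from a start and had no GC box.

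Genes of the pathways examined were seldom the nearest. Of 22 immediate early genes, which respond quickly to stimuli, 4 peaks had one nearest, which is 0.458% of the 874 and compares with 0.267% of all antibody 1 peaks. JUND, an AP-1 subunit, had a peak in its untranslated region 1137 bp from a start, at chr19:18279491-18279957, with a fold of 10.1 and CTCF folds of 101 and 21.9. JUNB, another AP-1 subunit, had one 1442 bp away, in a HOOK2 intron at chr19:12789865-12790259, with a fold of 5.74. NR4A2, an orphan nuclear receptor, had one in an intron at chr2:156334173-156334797, with a fold of 5.55. Of 36 adhesion and actin genes, 4 peaks had one nearest (0.458%, compared with 0.302%). These included LASP1, an actin-binding protein, with a fold of 5.13 at a summit that lay 11 bp from the transfer RNA gene TRC-GCA2-2. TNS1, the gene of a tensin of focal adhesions, had one in an intron with 4.25, and FLNA, which encodes filamin A, had one 6563 bp away with 4.02 and CTCF folds of 60.3 and 42.8.

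Among the other lists, 1 peak each was nearest to SMAD6, an inhibitory Smad, with a fold of 3.86, to RUNX2, the osteoblast transcription factor, 46476 bp away in a SUPT3H intron with 3.56, to EPHB4, an ephrin receptor, with 6.30, and to CCND1, which encodes cyclin D1, 2000 bp away with 4.43. In each of these 4 lists a single peak is 0.114% of the 874. Over all antibody 1 peaks the shares were 0.14% for TGF-beta and Wnt signalling, 0.0581% for the bone lineage, 0.105% for growth factors and receptors and 0.233% for the p53 and RB pathways, so the counts lay on both sides of the background. None of the 17 CTCF and cohesin genes, 26 Sp and KLF genes or 18 genes of cholesterol and lipid synthesis was nearest to any of the 874. Over all antibody 1 peaks the shares were 0.0581%, 0.105% and 0.14%, and a difference from shares this low was not detectable among 874 peaks. The nearest start is a position on the map and was not tested as a target.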

How the data were processed

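ChIP-seq peak lists for 2 Sp1 antibodies, rabbit IgG and 2 CTCF replicates were used; the 3 input libraries have no list here. Per the labels and methods, the authors made the lists in 4 steps, namely adapter trimming (cutadapt 2.6), alignment to hg38 (Bowtie2), removal of duplicates (SAMtools) and peak calling per library (MACS2 2.2.7.1). For Bowtie2 and SAMtools, the submitters' processing notes name later versions (2.4.5 and 1.15.1) than the methods do. The deposited lists give each peak's fold enrichment over control (a linear ratio), the −log10 p-value and −log10 q-value of the summit, and a score, which was not used. The lowest −log10 q was 1.30. The lists give no depth and the study's read numbers were not used here, so depth is unknown, and a fold depends on the control as well as on the library.

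Overlap meant at least 1 shared bp. Transcript starts and features came from GENCODE release 44, transfer RNA genes from RefSeq (GRCh38.p14). Of 875 RefSeq promoter sequences compared with the genome at their coordinates, 875 were identical. Both strands were searched for motifs in the 101 bases centred on the summit and in windows centred 500 bp to each side. Where several CTCF or IgG peaks overlapped, the highest fold was taken. Shares carry 95% Wilson intervals. No p-value was computed, because each Sp1 antibody has 1 library and peaks are not replicates. Scripts used pandas 2.3.3, SciPy 1.17.1 and pysam 0.24.0, and overlap, distance and motif counts were tested on simulated data.

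The peaks and lists were chosen with earlier results of these data known. Named peaks were the 10 strongest without an IgG overlap, the 5 strongest for CTCF, the 5 with most GC boxes, up to 3 per gene list, those next to the 1 kb limit and those overlapping IgG. The transfer RNA, X box word, CTCGTGAGA, GGGCGTGG, AGTGGGCG, tandem repeat, family, chromosome end, DUX4L and gap observations, and the peaks named for them, were added after seeing the data. Some peaks that this rule names are not reported here.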

Additional observations from a re-analysis of the deposited data

How the results depend on the processing

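Of 41 alternatives, 27 left a value within the interval of the main one (counts within 1.5 times, the median fold within the middle 50% of peaks). With a start distance of 5 kb in place of 1 kb the count fell to 499 peaks, the share with both CTCF replicates to 17.8%, the GC box share to 30.5% and the intron share to 43.3%. With starts of protein-coding genes only, the intron share was 44.9% and the share within 5 kb of a start was 26.8%. The intron share was 39.4% with features of protein-coding genes only. A −log10 q of at least 3 raised the GC box share to 39.5%. That share was 46.3% with 100 bp to each side of the summit, 14.0% for GGGGCGGGG, and 40.1% without peaks that share 25 bases with another, an alternative chosen after seeing the data. The share with both CTCF replicates was 4.92% with a reciprocal overlap of 50% and 8.58% with summits within 100 bp. With either CTCF replicate left out it was 22.9 to 26.1%. The median fold stayed between 4.77 and 5.36.

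The lists give no depth, so whether peaks of antibody 1 only lack antibody 2 signal or fell below its threshold cannot be told apart. The share of repeat-masked summits was not run, because the genome used is in upper case. No paired analysis was possible because the Sp1 libraries have no replicate and the numbers of the CTCF replicates recur only in inputs, for which no peak list was used.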
